A study of Mus musculus with 161 samples.

Results

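The cytosolic ribosomal protein genes encode the protein part of the ribosome in the cytoplasm. They were taken as all rows of the deposited expression table whose symbols start with Rpl or Rps followed by a digit, plus Rplp0, Rplp1, Rplp2 and Rpsa. Symbols containing -ps, the Rps6k kinases and rows at 0 in every cell were left out. This gave 91 of 43280 rows. By function, 31 are subunits of the small (40S) ribosomal subunit and 46 of the large (60S) subunit, the 3 stalk proteins included. The remaining rows are 6 paralogues (Rpl22l1, Rps27l, Rpl36al, Rpl39l, Rpl3l and Rps4l), 6 retrocopies (Rps27rt, Rpl37rt, Rps12l1, Rps12l2, Rps3a2 and Rps3a3) and 2 genes whose products are not ribosomal subunits (Rps19bp1 and Rpl7l1). The paralogue row Rpl10l was 0 in every cell and so fell outside the rule. Fau, which encodes a ribosomal protein fused to a ubiquitin-like domain, and Gnb2l1, the ribosome-bound scaffold RACK1, have symbols that the rule does not match.

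The libraries are 161 single cells of untreated C57BL/6 mice, captured on the Fluidigm C1 microfluidic system and sequenced as poly(A)-primed cDNA. The common monocyte progenitors (cMoP, 66 cells) came from bone marrow and were gated on CD117, CD115 and Ly6C, with lineage markers and CD135 absent (Lin-, CD117+, CD115+, CD135-, Ly6C+). The bone marrow (BM) monocytes (57 cells) carried the same surface markers except CD117. The blood monocytes (38 cells) were CD115+ and CD11b+ with high Ly6C. No label names an animal or its age, so each population counts as 1 sample of cells. The populations are also called BM cells and blood cells below. Differences between populations are therefore given with the spread over cells and without a test.

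Ribosomal proteins are made in near-equal numbers, because each ribosome holds 1 copy of almost every one of them, the stalk proteins Rplp1 and Rplp2 being the exception. Their mRNAs are among the most abundant of growing cells, and most begin with a run of pyrimidines, the 5′ terminal oligopyrimidine (TOP) motif, through which mTOR signalling sets their translation. Proliferating haematopoietic progenitors have a high demand for ribosomes, and reduced dosage of several of these genes, Rps19 and Rpl5 among them, causes the human anaemia Diamond-Blackfan syndrome. Ribosomal protein mRNAs have also given rise to many intronless copies in mammalian genomes, which short reads can match as well as the parent gene.

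The last point bears on how every level below is read, and the Rps27 family shows it. Rps27 encodes the 40S protein eS27 (chr3:90212522-90213651, minus strand, GRCm38). Rps27rt is a copy on chromosome 9 (chr9:114982366-114982739, minus strand) and Rps27l, an inducible target of p53, is a paralogue on the same chromosome (chr9:66946086-66949516, plus strand). The coding sequences below, positions 101 to 190 counted from the first base of the start codon, come from the GENCODE M21 transcripts of GRCm38. Capitals mark bases that differ from Rps27.
Rps27: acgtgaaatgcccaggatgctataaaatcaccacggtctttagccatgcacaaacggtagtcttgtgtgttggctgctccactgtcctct
Rps27rt: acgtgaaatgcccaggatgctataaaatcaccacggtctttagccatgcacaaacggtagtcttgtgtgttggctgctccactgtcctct
Rps27l: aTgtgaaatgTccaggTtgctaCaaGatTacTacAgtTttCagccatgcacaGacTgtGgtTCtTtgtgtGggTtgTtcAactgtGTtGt
Rps27rt matched Rps27 at all 255 coding bases, so reads inside the coding sequence fit both equally well. Rps27l differed from Rps27 at 23 of the bases shown and was 76.1% identical over the coding sequence, which lets most reads be told apart.

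The start sites of 4 members are shown for the TOP motif. Each window holds 15 bases before and 15 after the RefSeq start (GRCm38.p6), and capitals mark the longest run of C and T that lies within 3 bases of that start. The windows are chr7:3704026-3704055 (plus strand) for Rps9, chr3:90213634-90213663 (minus strand) for Rps27, chr10:128626492-128626521 (minus strand) for Rps26 and chr5:115559452-115559481 (plus strand) for Rplp0.
Rps9: accgccttgTCTCTCTTTgtctcgggcctg
Rps27: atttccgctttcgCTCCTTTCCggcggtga
Rps26: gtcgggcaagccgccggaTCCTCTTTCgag
Rplp0: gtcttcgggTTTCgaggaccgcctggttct
A run of at least 6 such bases, read on the gene's own strand, was found at the annotated start of 45.6% of the 57 subunit genes with a RefSeq entry. The share over all 27025 genes with an entry was 19.3%. Rps9, Rps27 and Rps26 each had a run of 9 and Rplp0 one of 4, against a median of 4 over the 67 promoters of subunit genes. Whether the length of the run goes with the level of a member was not tested.

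Libraries that stand apart come before the results. Of the cMoP, 11 had between 16.6% and 47.7% of TPM in mitochondrially encoded rows, while the other 55 had at most 11.1%. No BM or blood monocyte exceeded 9.80%. Blood monocyte 29 had 55 of the 91 ribosomal protein rows at 0, against at most 19 in the other 37 blood libraries. That library also had 377 TPM of Lyz2, the lysozyme gene of monocytes, against at least 25841 TPM in the others. A cMoP had a median of 6662 genes above 1 TPM, a BM monocyte 4719 and a blood monocyte 4320. The labels place 60 cMoP in 1 flow cell lane and all BM and blood monocytes in another, and 6 cMoP carry no flow cell. Those 6 had 8720 to 9971 genes above 1 TPM, against at most 7552 in the other 60 cMoP. For cMoP against monocytes, stage and flow cell cannot be told apart. The marker check gave summed TPM of 5 progenitor markers with a median of 17460 in cMoP and 0 in both monocyte populations. This sum was above 1 TPM in 22 of 57 BM cells, at up to 1733 TPM, and in 7 of 38 blood cells, at up to 340 TPM. The 5 monocyte markers had medians of 6371 TPM in cMoP, 59243 TPM in BM cells and 59759 TPM in blood cells. Markers of other cell types were summed in the same way. The 4 B cell markers, of which Cd79a and Pax5 were 0 in every cell, reached 14.4 TPM at most, and the 4 T cell markers, of which Cd3e, Cd3g and Trac were 0 in every cell, 28.6 TPM. The 3 NK cell markers, with Ncr1 at 0 in every cell, had medians of 109, 0 and 0 TPM in cMoP, BM and blood cells, and their highest sums there were 2803, 6.38 and 31.9 TPM. The 4 neutrophil markers, with Ngp at 0 in every cell, had medians of 0 and reached 738, 1894 and 27.2 TPM in the same order. The 4 basophil and mast cell markers, with Fcer1a and Prss34 at 0 in every cell, were above 1 TPM in 13 cMoP, at up to 1560 TPM, and 0 in all monocytes. Summed levels of the erythroid, platelet and dendritic cell markers had medians of at most 1.18 TPM in any population. Their highest sums in any cell were 200, 18.5 and 269 TPM. The part of such transcripts in the values below was not tested.

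Ribosomal protein rows made up the largest share of TPM in cMoP. The share per cell ran from 1.23% over a median of 9.99% to 12.5% in cMoP, from 4.07% over 6.08% to 8.97% in BM cells, and from 0.380% over 5.63% to 8.87% in blood cells. Means were 9.24 ± 2.78% in cMoP (SD, n = 66 cells), 6.18 ± 1.08% in BM cells (n = 57) and 5.601 ± 1.38% in blood cells (n = 38). The median in BM monocytes differed from that in cMoP by -3.91 percentage points, and the median in blood monocytes from that in BM monocytes by -0.448 points. TPM is relative within a cell, so these are shares of the measured mRNA and not amounts per cell.

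The low tail of cMoP coincided with the libraries rich in mitochondrial transcripts. Those 11 cells had ribosomal protein shares of 1.23% to 9.68%, median 2.81%, and the other 55 had 8.04% to 12.5%, median 10.5%. Among the 55, the groups separated almost fully: 50 lay above the highest BM monocyte, and 54 of 57 BM monocytes lay below the lowest of them. The difference of medians between BM monocytes and these cMoP was -4.39 percentage points. The 6 cMoP without a flow cell in their label had shares of 9.24% to 11.3%, above all 57 BM monocytes. Blood and BM monocytes overlapped over most of their range, and 4 of 38 blood cells lay below the lowest BM cell. Without blood monocyte 29 the lowest blood share was 3.71% and the median 5.70%.

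**Figure D1:**
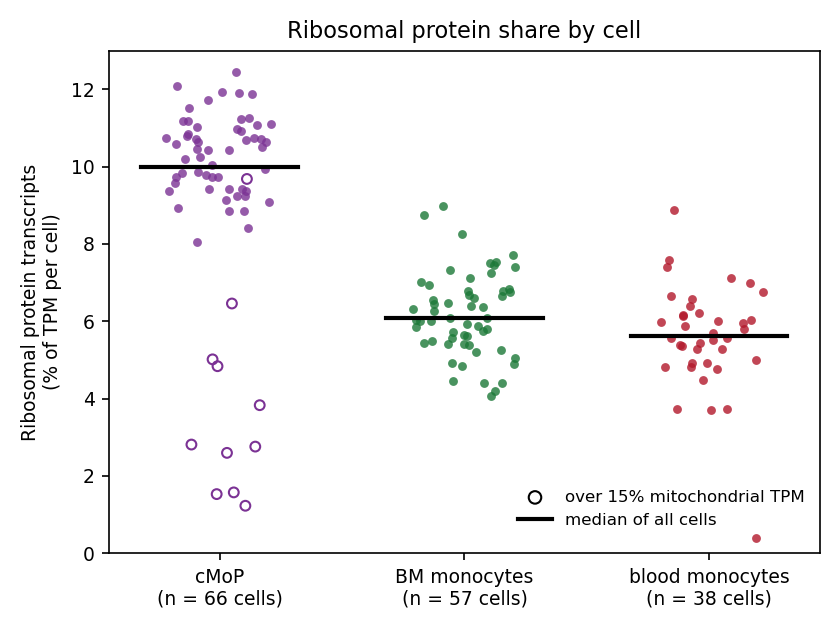
Share of TPM in the 91 ribosomal protein rows (y axis, percent) for each cell of the 3 populations, with horizontal lines at the medians of 9.99%, 6.08% and 5.63%. Open circles are the 11 cMoP with over 15% mitochondrial TPM, which form the low tail of that population, and the lowest blood point at 0.380% is blood monocyte 29.

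Across the 66 cMoP the ribosomal protein share and the mitochondrial share ran in opposite directions, with a Spearman rho of -0.65. Within the 55 cMoP of lower mitochondrial share rho was -0.41. Both are parts of 1 fixed total per cell. With mitochondrial rows taken out of the total for the ribosomal protein share only, the values were -0.52 over the 66 and -0.25 over the 55 cells. On that measure rho was 0.12 in the 57 BM monocytes and 0.07 in 37 blood monocytes, without blood monocyte 29, and on the share of all TPM it was 0.05 in BM and 0.01 in blood monocytes. Cells of a population share capture and library preparation, so these are descriptions. The part of library quality in the cMoP values was not tested.

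**Figure D2:**
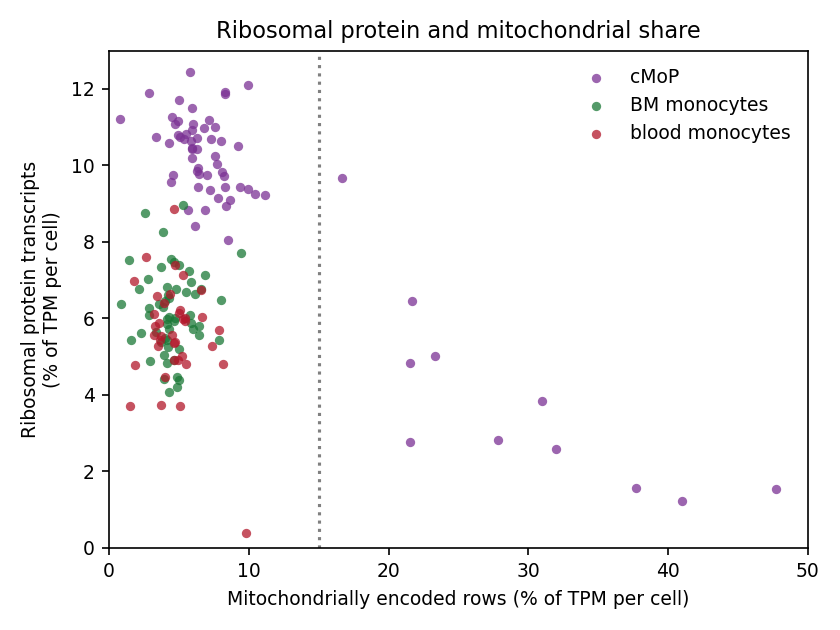
Ribosomal protein share (y axis, percent of TPM) against the share of mitochondrially encoded rows (x axis, percent of TPM) in 161 cells, coloured by population, with a dotted line at 15%. To the left of the line cMoP lie between 8.04% and 12.5% and monocytes at or below 8.97%, and to its right are 11 cMoP.

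Within the 55 cMoP the ribosomal protein share ran with the summed share of 19 translation factors and other TOP mRNAs (rho 0.39) and with that of the mitochondrial ribosomal proteins (rho 0.30). With mitochondrially encoded rows out of the total for the ribosomal protein share only, these values were 0.35 and 0.17. The shares of the other lists stayed percentages of all TPM. It ran weakly against the number of genes above 1 TPM (rho -0.38), and values for the S phase and the G2 and M phase genes were -0.07 and 0.06. All lists share the fixed total of a cell. Single members followed the rest of the set loosely: the median rho between a member and the summed share of all other members was 0.36 in these cMoP, 0.28 in BM monocytes and 0.20 in the 37 blood monocytes. The member that followed the rest most closely was Rpl37a in cMoP (0.71), Rpl41 in BM cells (0.67) and Rpl32 in blood cells (0.58).

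Gene by gene, most members were lower in BM monocytes than in cMoP. Of the 91 members, 88 were measured, which here means that 10% or more of the cells of some population had over 1 TPM. Rpl3l, Rpl39l and Rps12l2 were not. The measure is the difference in mean log2(TPM + 1), and a difference of at least 1 was counted as called. For BM monocytes minus cMoP the median over members was -0.61. 80 of 88 were lower, against 73.5% of all 14003 measured genes, and 16 were lower by at least 1, against 30.8%. None was higher by at least 1, against 3.94%. With the 11 mitochondria-rich cMoP left out the median was -1.10, 87 of 88 members were lower (72% of all genes) and 51 were lower by at least 1 (35.1% of all genes). Among libraries with 4500 to 6000 genes above 1 TPM, where 10 of the 17 cMoP are mitochondria-rich, the members' median was 0.79, and it was -1.04 without those 10. The median over all genes was -0.45 with all libraries and -0.53 without those 11. On a log2 ratio of the mean TPM values, the median was -0.65 over the members and -0.09 over all genes, and 83 of 88 members had a ratio below 0 (52.5% of all genes).

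Blood monocytes lay below BM monocytes by a smaller step. The median over the 88 members was -0.47, with 79 lower (59.8% of all measured genes), 14 lower by at least 1 (9.66% of all genes) and 1, Rpl5, higher by at least 1 (1.96% of all genes). Blood monocyte 29 carried part of this: without it the median was -0.32, with 72 members lower (61.4% of all genes) and 11 lower by at least 1 (9.33%). All measured genes had a median of -0.10 with that library and -0.11 without it. As log2 ratios of mean TPM the members' median was -0.15 and that of all genes -0.002. These 2 populations share their flow cell lane.

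Blood monocytes minus cMoP spans both steps and shares its cells with the comparisons above. The median over members was -1.11, with 84 of 88 lower (73.1% of all genes) and 52 lower by at least 1 (37.7%). No member was higher by at least 1, against 4.28% of all genes. Without the 11 cMoP and blood monocyte 29 the median was -1.46, with 85 lower (73.1% of all genes) and 66 lower by at least 1 (40.7%).

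**Figure D3:**
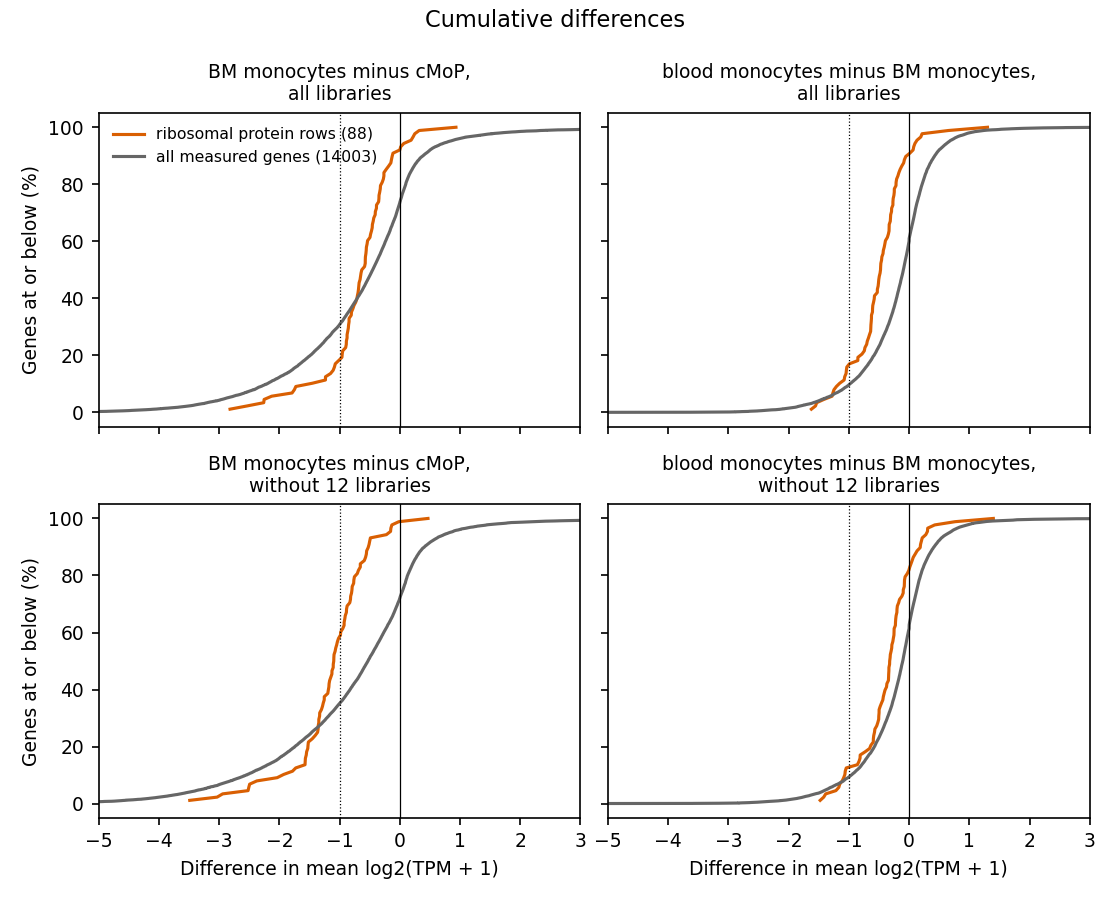
Cumulative share of genes (y axis, percent) at or below a difference in mean log2(TPM + 1) (x axis), for the 88 measured ribosomal protein rows and for all 14003 measured genes, with lines at 0 and -1. The lower panels leave out the 11 mitochondria-rich cMoP and blood monocyte 29: there the median of the members was -1.10 for BM monocytes minus cMoP and -0.32 for blood minus BM monocytes.

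The genes of the small and of the large subunit had similar median differences. For BM monocytes minus cMoP the 31 genes of the 40S subunit had a median of -0.64, with 26 lower and 2 lower by at least 1. The 46 genes of the 60S subunit had a median of -0.57, with 45 lower and 9 lower by at least 1. Over all measured genes 73.5% were lower and 30.8% lower by at least 1. Without the mitochondria-rich cMoP the medians were -1.13 for the 40S and -1.05 for the 60S genes, with 19 and 25 genes lower by at least 1 (35.1% of all genes). In blood minus BM monocytes the medians were -0.61 for the 40S and -0.42 for the 60S genes, and -0.37 and -0.27 without blood monocyte 29. On the log2 ratio of mean TPM they were -0.21 and -0.13 with all libraries. The summed mean TPM of 40S genes divided by that of 60S genes was 0.794 in cMoP, 0.811 in BM cells and 0.804 in blood cells.

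The make-up of the pool was also close between populations. The 10 most abundant members held 32.1% of all ribosomal protein TPM in cMoP, 31.9% in BM cells and 32.6% in blood cells. Of the 85 members above 10 TPM in the mean of any population, 75 had a share of the pool within 0.5 log2 units between BM monocytes and cMoP, 78 between blood and BM monocytes, and 66 between blood monocytes and cMoP. The Spearman rho of member means, across genes that are not independent replicates, was 0.97 for the first 2 comparisons and 0.93 for the third.

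Rps19, a 40S protein needed to mature 18S rRNA, had the highest mean level of the set. Its lowest, median and highest TPM were 30.02, 4261 and 6510 in cMoP, 348, 2476 and 5909 in BM cells, and 13, 2136 and 6181 in blood cells. Ranges overlapped, and the median of cMoP was the highest of the 3. Differences in mean log2(TPM + 1) were -0.55 for BM monocytes minus cMoP and -0.47 for blood minus BM monocytes. Without the libraries that stand apart they were -0.91 and -0.29.

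Rplp0, the scaffold of the 60S stalk that recruits elongation factors, came next in mean level. It had 31.9, 3666 and 7679 TPM as lowest, median and highest in cMoP, 131, 2545 and 5735 in BM cells, and 22.4, 1718 and 4336 in blood cells. Its stalk partners had lower levels and the same order: medians of Rplp1 were 1099, 654 and 381 TPM, and those of Rplp2 were 1489, 847 and 692 TPM, in cMoP, BM and blood monocytes. Blood minus BM differences were -0.41 for Rplp0, -1.03 for Rplp1 and -0.67 for Rplp2, and -0.25, -0.81 and -0.59 without blood monocyte 29.

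Rpl3 and Rpl4, core 60S proteins that bind the large rRNA early in assembly, had some of the wider gaps among the abundant members. Rpl3 had 43.1, 3359 and 5502 TPM in cMoP, 14.2, 1470 and 3365 TPM in BM cells, and 0, 1110 and 2910 TPM in blood cells, as lowest, median and highest. Its differences were -1.15 for BM monocytes minus cMoP and -1.07 for blood minus BM monocytes. Rpl4 had median levels of 3101 TPM in cMoP, 1273 TPM in BM cells and 1132 TPM in blood cells, with differences of -1.11 and -0.34. The gap between BM and cMoP was -1.57 for each of the 2 genes without the mitochondria-rich cMoP.

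Not every abundant member followed. Rps9, a 40S protein placed early in assembly, had a mean of 2034 TPM in cMoP, 2197 TPM in BM cells and 2234 TPM in blood cells. Its lowest, median and highest values were 16.3, 2146 and 3442 in cMoP, 525, 2176 and 5257 in BM cells, and 20.97, 2130 and 5106 in blood cells. The 3 medians lay within the spread of any population. The difference of BM monocytes minus cMoP was 0.32 with all libraries and -0.15 without the mitochondria-rich cMoP. Its share of the ribosomal protein pool was 3.99% in blood monocytes against 2.20% in cMoP.

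Rps14, whose reduced dosage underlies the anaemia of human 5q- syndrome, likewise had a difference that turned with the libraries used: 0.22 for BM monocytes minus cMoP with all cells and -0.49 without the mitochondria-rich ones. The other members above 0 in this comparison were Rps27 (0.93), Rps27rt (0.25), Rps12 (0.19), Rpl13 (0.07), Rps10 and Rps3a3, the last 2 named only to complete the count. Without the mitochondria-rich cMoP, Rps27 alone stayed above 0, at 0.47. It had 0, 263 and 859 TPM as lowest, median and highest in cMoP, 14.8, 328 and 1147 TPM in BM cells, and 0, 408 and 1299 TPM in blood cells. Its median TPM was highest in blood monocytes and lowest in cMoP, opposite to the set as a whole, while the ranges overlapped. On the difference in mean log2 level, however, Rps27 was lower in blood than in BM monocytes, like the set. That difference was -0.53, against a median of -0.47 over the members. Without the libraries that stand apart both values were -0.32. Rps27 took a share of the pool that was higher by 0.99 log2 units in BM monocytes than in cMoP and by 1.45 in blood monocytes than in cMoP.

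Among the subunits, those of the 60S gave the lowest differences between BM monocytes and cMoP. Rpl36a, which sits at the tRNA exit site, had 0, 628 and 1489 TPM as lowest, median and highest in cMoP, 0, 208 and 1015 TPM in BM cells, and 0, 157 and 1165 TPM in blood cells. Its difference was -2.13, and -2.49 without the mitochondria-rich cMoP. On the 40S side Rps15 was lowest, with medians of 849 TPM in cMoP, 417 TPM in BM cells and 302 TPM in blood cells and a BM minus cMoP difference of -1.79. It was above 1 TPM in 66 of 66 cMoP, 53 of 57 BM cells and 36 of 38 blood cells.

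The lowest differences between blood and BM monocytes came from other genes. Rpl10a, a 60S protein of the L1 stalk, had 41.9, 424 and 795 TPM as lowest, median and highest in cMoP, 0, 237 and 698 TPM in BM cells, and 0, 104 and 594 TPM in blood cells. It was lower at both steps, with differences of -1.45 for BM monocytes minus cMoP and -1.53 for blood minus BM monocytes. Rps26, which lies at the mRNA exit channel, had 0, 418 and 771 TPM in blood monocytes against 36.1, 610 and 1476 TPM in BM monocytes, and its median in cMoP was 1151 TPM. Its blood minus BM difference was -1.28, and -1.17 without blood monocyte 29. The log2 ratio of its share of the pool in blood monocytes to that in cMoP was -1.01.

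Rps20, a protein of the 40S head, and Rpl7a, a 60S protein, were also at this end of the list, with blood minus BM differences of -1.27 and -1.62. Rpsa, the 40S protein also known as the laminin receptor, had medians of 372 TPM in blood monocytes against 715 TPM in BM monocytes, and its cMoP median was 868 TPM. Its difference was -1.15 for blood minus BM monocytes and -0.19 for BM monocytes minus cMoP, or -0.79 without the mitochondria-rich cMoP. Rps13 (0.22) and Rpl38 (0.10) were among the 9 members above 0 between blood and BM monocytes with all libraries. Without blood monocyte 29 their differences were 0.43 and 0.31. Summed with their pseudogene rows, described next, they gave -0.30 and 0.02 with all libraries, so the direction of Rps13 turned.

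Several of the most extreme rows did not keep their values when the copies were counted with them. Annotated pseudogene rows that matched a member's coding sequence at 90% identity or more over at least 80% of its length numbered 597. Their median share of TPM was 2.93% in cMoP, 1.84% in BM cells and 1.66% in blood cells. Their share of the summed TPM of members and pseudogene rows was close between stages, with medians of 22.5% in cMoP, 23.02% in BM cells and 22.9% in blood cells. 73 of the 77 subunits had at least 1 such row or retrocopy, and for 21 these rows held over 50% of the summed TPM in cMoP.

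Rpl5, the 60S protein that carries 5S rRNA and can bind Mdm2, is the clearest case. Its own row had medians of 20.8 TPM in cMoP, 3.41 TPM in BM cells and 6.69 TPM in blood cells. The annotated pseudogene Gm15500, identical to Rpl5 over 100% of the coding sequence, averaged 1524 TPM over all cells. Rpl5 alone had the lowest BM minus cMoP difference of the set, -2.82, and the highest blood minus BM difference, 1.30. Summed with its 4 matching rows it had -1.04 and -0.97, so the direction of the second step turned. Rpl11, the other protein of the 5S particle, named here outside the rule for comparison, had -0.80 and -0.31 alone and -0.63 and -0.31 with its copies.

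Rpl27 and Rps12 behaved in the same way. The row of Rpl27, a 60S protein, gave -2.26 for BM monocytes minus cMoP and 0.65 for blood minus BM monocytes, and its sum with 7 matching rows gave -0.58 and -0.01. In that sum 92.1% of the cMoP level came from the added rows, among them Gm11518, an identical copy of the coding sequence. The row of Rps12, a 40S protein of the beak, gave 0.19 and -1.55, and its sum with 21 rows gave -1.01 and -0.87. Rps12 alone was above 1 TPM in 37 of 66 cMoP and 37 of 57 BM monocytes, whereas the sum exceeded 1 TPM in every cMoP.

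For Rpl12 the family sum lay further from 0 than the single row. This 60S protein of the stalk base had a row with medians of 7.82 TPM in cMoP and 0 in both monocyte populations. Alone it gave -2.25 for BM monocytes minus cMoP and -0.33 for blood minus BM monocytes, and with 7 matching rows, Gm10275 foremost, -2.31 and -1.93. Mean family levels were 812 TPM in cMoP, 333 TPM in BM cells and 193 TPM in blood cells. Family sums above 1 TPM were found in 95.5%, 89.5% and 71.1% of the cells of these stages. Rpl12 then had the lowest family difference of all subunits at each step.

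Over the 77 subunits the family sums left the centre of the set in place. The median was -0.55 for family sums and -0.59 for single rows in BM monocytes minus cMoP, and -0.50 and -0.48 in blood minus BM monocytes. 72 of 77 family sums were lower in each of these 2 comparisons, against 73.5% and 59.8% of all measured genes. These sums used all libraries, those that stand apart included. The SD over subunits was 0.46 for family sums and 0.57 for single rows in the first comparison, and 0.40 and 0.47 in the second. The highest family sum was that of Rps27 in both, 0.36 and 0.09. Rps9, with no matching row, kept 0.32 and -0.12.

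**Figure D4:**
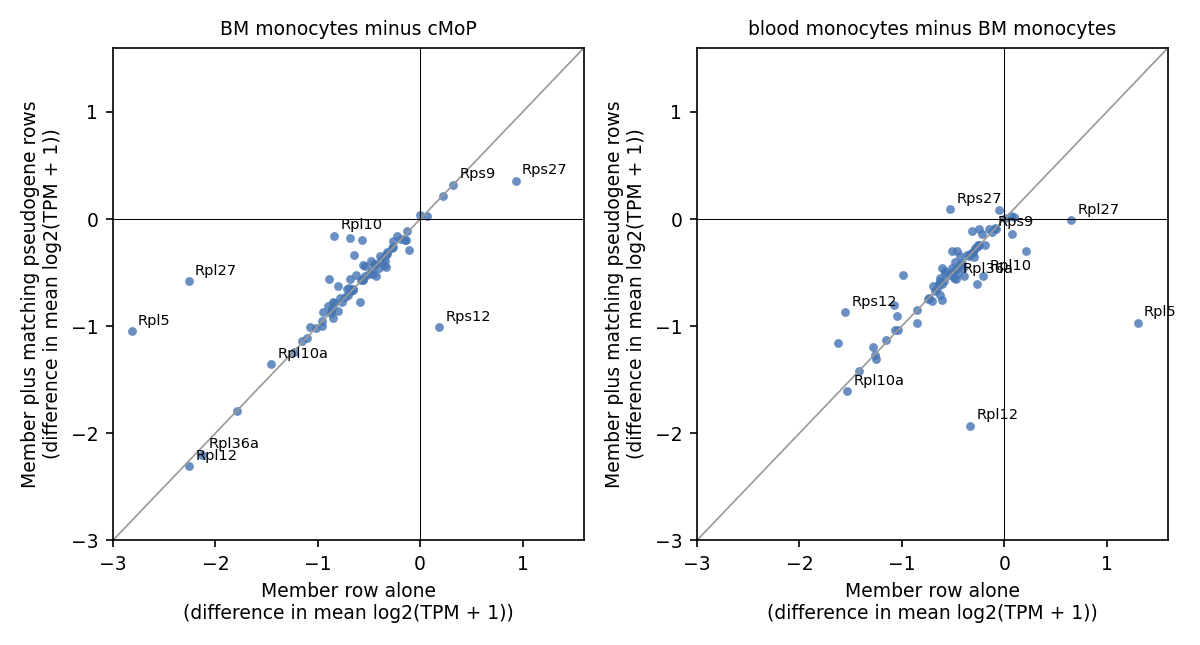
Difference in mean log2(TPM + 1) of each of the 77 subunit rows alone (x axis) and summed with its matching pseudogene and retrocopy rows (y axis), with the diagonal of equal values. Most points lie near the diagonal. Rpl5 moves from -2.82 to -1.04 in the left panel and from 1.30 to -0.97 in the right, and Rpl12 moves from -0.33 to -1.93 in the right.

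Among the retrocopies that the rule takes in, those identical or nearly so to their parents held most of the pair. Rps27rt took 81.0% of the summed mean of Rps27rt and Rps27 in cMoP, 77.3% in BM cells and 75.8% in blood cells. Rps12l1, whose transcript matches the 399 coding bases of Rps12 without a difference, took 85.6%, 77.1% and 81.5%. Rpl37rt, with 1 mismatch in 294 bases to Rpl37, took 79.9%, 80.4% and 78.4%. These shares describe how the deposited estimates divide reads between near-identical rows, and do not show which copy was transcribed. Rps3a2 and Rps3a3, at 99.5% and 98.9% identity to Rps3a1, held under 0.3% of their pairs in all 3 populations.

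The diverged paralogues can be read as genes of their own. Rps27l had 0, 417 and 990 TPM as lowest, median and highest in cMoP, 0, 241 and 957 TPM in BM cells, and 0, 88.5 and 774 TPM in blood cells. It was above 1 TPM in 92.4% of cMoP (95% exact binomial interval 83.2 to 97.5), 78.9% of BM cells (66.1 to 88.6) and 73.7% of blood cells (56.9 to 86.6). Such intervals cover the counting of cells only. Differences were -1.75 for BM monocytes minus cMoP and -0.78 for blood minus BM monocytes. Rps27l held 60.1% of the summed mean of Rps27l and Rps27 in cMoP, 42.4% in BM cells and 30.7% in blood cells, and exceeded Rps27 in 47 of 66, 23 of 57 and 9 of 38 cells. These shares and cell counts use the Rps27 row alone, whose reads cannot be told from those of Rps27rt inside the coding sequence. With the copies of Rps27 counted in, the share of Rps27l in cMoP was 22.2%. Mean TPM of Rps27 with its copies was 1464 in cMoP, 1649 in BM cells and 1906 in blood cells. Rps27l had means of 419, 272 and 204 TPM in the same order.

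Rpl22l1, the paralogue that Rpl22 represses in mouse cells, was likewise highest in cMoP. It had 0, 254 and 803 TPM as lowest, median and highest in cMoP, 0, 117 and 736 TPM in BM cells, and 0, 38.2 and 1234 TPM in blood cells. The share of cells above 1 TPM was 93.9% in cMoP (85.2 to 98.3), 84.2% in BM cells (72.1 to 92.5) and 68.4% in blood cells (51.3 to 82.5). Differences were -1.73 for BM monocytes minus cMoP and -1.21 for blood minus BM monocytes. Mean TPM did not follow the blood minus BM difference, at 148 in blood monocytes and 139 in BM monocytes. The part of the cells at 0 in that difference was not tested. Rpl22l1 made up 40.7% of the pair with Rpl22 in cMoP, 36.5% in BM cells and 36.5% in blood cells. Rpl22 itself had medians of 400, 183 and 210 TPM in the 3 stages.

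Rpl36al, the autosomal paralogue of the X-linked Rpl36a, had the lower mean of the pair in cMoP and the higher mean in both monocyte populations. It held 41.7% of the pair in cMoP, 53.3% in BM cells and 55.5% in blood cells. Rpl36al exceeded Rpl36a in 18 of 66 cMoP, 32 of 57 BM cells and 25 of 38 blood cells. Both were lower in BM monocytes than in cMoP, with differences of -1.23 for Rpl36al and -2.13 for Rpl36a. The coding sequences of the pair are 87.9% identical.

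**Figure D5:**
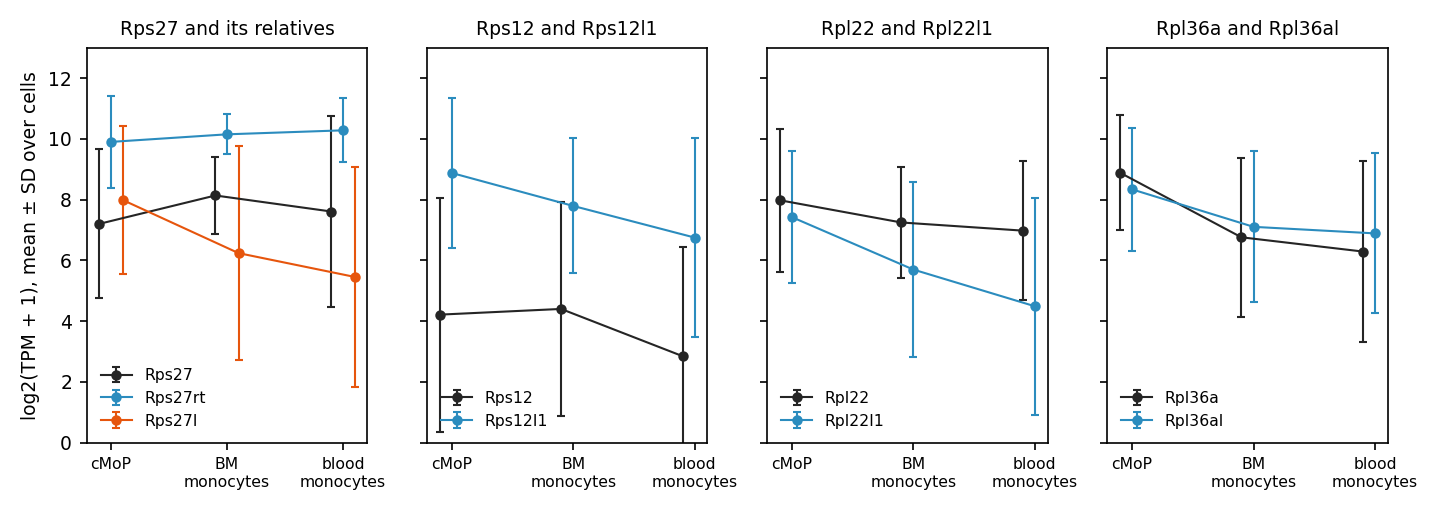
Mean log2(TPM + 1) with SD over cells (y axis) in cMoP, BM monocytes and blood monocytes for 4 sets of related rows. Rps27l and Rpl22l1 have their highest mean in cMoP and their lowest in blood monocytes, Rps27rt stays at or above 9.90, and the SD bars of neighbouring stages overlap in every panel.

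Rpl39l, Rpl3l and Rps4l had medians of 0 in every population. Rpl39l, known from testis, was above 1 TPM in 0 of 66 cMoP, which allows a share of up to 4.55%, and in 1 BM and 1 blood monocyte. Rpl3l, known from striated muscle, was above 1 TPM in 3 cMoP, 0 BM monocytes (which allows up to 5.26%) and 2 blood monocytes, with a highest value of 84.5 TPM in a blood monocyte. Rps4l, annotated as a transcribed processed pseudogene, was above 1 TPM in 19.7% of cMoP, 8.77% of BM cells and 7.89% of blood cells. Its mean was 11.2 TPM in cMoP, 19.3 TPM in BM cells and 11.8 TPM in blood cells, and its highest values were 159, 387 and 414 TPM. The log2 ratio of its share of the pool in BM monocytes to that in cMoP was 1.37, the highest of the members above 10 TPM in the mean of any population, and rests on 5 BM monocytes above 1 TPM.

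The 2 rows that are not ribosomal subunits were also highest in cMoP. Rpl7l1, a nucleolar relative of Rpl7 that acts in 60S assembly, had 0, 101 and 483 TPM as lowest, median and highest in cMoP, 0, 4.18 and 556 TPM in BM cells, and 0, 2.995 and 426 TPM in blood cells. It was above 1 TPM in 60 of 66, 42 of 57 and 22 of 38 cells. The difference was -2.53 for BM monocytes minus cMoP and -3.17 for blood monocytes minus cMoP, where it was the lowest of the set. Rpl7, the subunit, had means of 1840 TPM in cMoP, 1404 TPM in BM cells and 1272 TPM in blood cells. Rps19bp1, which encodes a nucleolar Rps19-binding protein, was above 1 TPM in 26 cMoP, 9 BM monocytes and 3 blood monocytes.

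A ribosomal protein and a ribosome-bound protein outside the naming scheme were also compared. Fau had medians of 225 TPM in cMoP, 161 TPM in BM cells and 240 TPM in blood cells, with a BM minus cMoP difference of -0.02, or -0.41 without the mitochondria-rich cMoP. Gnb2l1 had medians of 1518 TPM in cMoP, 803 TPM in BM cells and 722 TPM in blood cells. It differed by -0.71 for BM monocytes minus cMoP, or -1.09 without the mitochondria-rich cMoP, and by -0.83 for blood minus BM monocytes.

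In mean log2(TPM + 1), assembly genes and mitochondrial ribosomal protein genes had wider gaps between BM monocytes and cMoP than the cytosolic set. Of 20 measured genes for ribosomal protein chaperones, 60S assembly and the 5S particle, 20 were lower and 19 lower by at least 1, with a median of -2.53. The lowest were Ipo5, an importin that carries ribosomal proteins (-4.43), Brix1 (-3.28), Mdn1 (-3.25) and Rpf2 (-3.22). Of 77 measured mitochondrial ribosomal protein genes, 75 were lower and 68 lower by at least 1, with a median of -2.10. These lists hold less abundant genes, and on the log2 ratio of mean TPM their medians were -0.85 and -0.68, near the -0.65 of the cytosolic set. In all, 73.5% of measured genes were lower and 30.8% lower by at least 1.

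Of 19 translation factors and other TOP mRNAs, 17 were lower in BM monocytes than in cMoP, 12 of them by at least 1, with a median of -1.84 (73.5% and 30.8% of all measured genes). On the log2 ratio of mean TPM the median was -0.51, with 15 lower (52.5% of all genes). Eef1g, a subunit of elongation factor 1, gave -3.57. Npm1, the nucleolar chaperone, had medians of 613 TPM in BM monocytes against 1933 TPM in cMoP. Eef1a1, the most abundant of the list, had medians of 6826 TPM in BM monocytes against 9518 TPM in cMoP, with a difference of -0.20. Blood minus BM monocytes gave a median of -0.99 over this list, with 17 lower and 8 lower by at least 1 (59.8% and 9.66% of all genes), and -0.36 on the log2 ratio of mean TPM.

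The list for control of ribosomal protein synthesis holds genes of unlike action, Myc, Trp53, Mdm2 and Cdkn1a among them. Of its 20 measured genes, 19 were lower in BM monocytes than in cMoP, 9 of them by at least 1 (73.5% and 30.8% of all measured genes). Without the mitochondria-rich cMoP 13 were lower by at least 1 (35.1% of all genes). On the log2 ratio of mean TPM only 10 of the 20 were lower, near the 52.5% of all genes. The median of this list was -0.34 on that measure, against -0.09 over all genes. Myc, which drives transcription of ribosomal protein genes, was above 1 TPM in 53 of 66 cMoP, 3 of 57 BM cells and 2 of 38 blood cells, with medians of 78.8, 0 and 0 TPM. Trp53 had medians of 356, 2.27 and 0.580 TPM in these stages. Cdkn1a, which p53 induces, was the exception, with a BM minus cMoP difference of 2.98 and means of 232 TPM in BM monocytes against 24.2 TPM in cMoP. Of the proliferation lists, 18 of 18 S phase genes and 17 of 17 for G2 and M phase had lower means in BM monocytes than in cMoP, 18 and 16 of them by at least 1, against the same shares of all genes. On the log2 ratio of mean TPM, 18 S phase and 15 G2 and M phase genes were lower (52.5% of all genes).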

How the data were processed

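Libraries were made on Fluidigm C1 chips with oligo-dT priming and a Nextera XT kit, per the labels' protocols. The authors deposited TPM values, 1 column per cell, made with RSEM 1.2.19 on GRCm38 per the submitters' processing notes. For the aligner and the annotation, details were not given in the sources used here. TPM keeps no read depth, so depth per cell is unknown and only the number of genes above 1 TPM stands for it. Column sums were 997939 to 999955 TPM. All 161 columns matched a labelled cell (0 did not), no cell was filtered out, no doublet caller was run, and 0 pairs of libraries held identical values.

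From the deposited TPM the summed percent of the 91 members per cell was computed, and for each gene the difference between populations in mean log2(TPM + 1), later stage minus earlier. The pseudocount of 1 understates differences of low genes. No test, p-value or standard error was computed, since each population is 1 sample. Copies were found with blastn 2.17.0 between GENCODE M21 coding sequences and annotated pseudogene transcripts, with 2 rows assigned by symbol, and 90 of 91 members had a GENCODE entry. Python 3.11.15, numpy 2.4.6, pandas 2.3.3 and matplotlib 3.10.9 were used, and the scripts were tested on simulated data.

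Named were the 10 members of highest mean TPM, the 6 highest and 6 lowest differences and the 4 highest and 4 lowest pool ratios in each comparison, all paralogues and non-subunits, and up to 4 genes of each other list. Some genes that the rule or the lists take in are not reported here. Members, lists and this rule were chosen with earlier results of these data known. Alternatives covered the denominator, pseudocount, filter, scaling, summary and libraries. Those on blood monocyte 29, on gene number without mitochondria-rich cells and on family sums were chosen after seeing the data.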

Additional observations from a re-analysis of the deposited data

How the results depend on the processing

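Of 264 alternative values of the shares, list medians, counts, pool and paralogue summaries, 240 kept their direction and size. Size was kept when a share or percent moved by less than the SD over cells, or a median or count by less than a fixed fold. This is a wide margin for the small blood minus BM share difference. Some values could not change: cMoP libraries do not enter blood minus BM monocytes, and blood monocyte 29 does not enter BM monocytes minus cMoP. The 4 that turned all came from keeping only libraries of 4500 to 6000 genes. Mitochondria-rich cells are 10 of the 17 cMoP left there. There the share of TPM differed by 1.02 percentage points for BM monocytes minus cMoP and by 0.617 for blood monocytes minus cMoP, and the list medians were 0.79 and 0.37. In the same range without those 10 cells, BM monocytes minus cMoP gave a share difference of -4.60 and a median of -1.04. There 50 of 88 members were lower by at least 1 (23.9% of all genes). In the gene range with those cells, BM monocytes minus cMoP had 16 of 88 members lower (53.2% of all genes) and 3 by at least 1 (12.9%). Blood monocytes minus cMoP had 26 lower (58.8% of all genes) and 3 by at least 1 (20.3%). Blood minus BM monocytes there gave a median of -0.29 and 7 members lower by at least 1 (13.6% of all genes), with or without those 10 cells. Leaving out the mitochondria-rich cMoP in the whole set gave BM monocytes minus cMoP a median of -1.10. There 51 members were lower by at least 1 (35.1% of all genes), also when blood monocyte 29 was left out as well. With a pseudocount of 10, 6 members were lower by at least 1 in blood minus BM monocytes (2.92% of all genes). Log2 ratios of mean TPM gave 10 of 88 such members for BM monocytes minus cMoP, against 26.5% of all genes. They gave 2 for blood minus BM monocytes (25.7% of all genes), with a median of -0.15, and 27 for blood monocytes minus cMoP (31.9%). Rps27l held 22.2% of its pair in cMoP once the copies of Rps27 were added, by construction. The cause was not tested for the others.

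Of 1158 alternative values of 36 named members, 23 turned where the reported difference was at least 1 in size and 87 where it was smaller, 43 of these in libraries of 4500 to 6000 genes. The 23 follow. On log2 ratios of mean TPM they were Rpl22l1 in blood minus BM monocytes (0.086) and Rpl10 in blood monocytes minus cMoP (0.13), and with family sums Rpl5 in blood minus BM monocytes (-0.97). In cells with 4500 to 6000 genes, BM monocytes minus cMoP gave 0.69 for Rpl22l1, 0.41 for Rpl3, 0.87 for Rpl36al, 0.35 for Rpl38, 0.58 for Rpl4, 1.82 for Rps12l1 and 1.601 for Rps27l. Blood monocytes minus cMoP gave 1.65 for Rpl10, 0.0025 for Rpl27, 0.13 for Rpl36al, 0.67 for Rpl37rt, 0.31 for Rpl4, 1.17 for Rpl7a, 1.05 for Rps12, 0.86 for Rps12l1, 0.42 for Rps18, 1.64 for Rps26, 1.04 for Rps27l and 1.01 for Rpsa, and without the mitochondria-rich cells 0.80 for Rpl10. No paired analysis was possible because the labels give no replicate numbers and no result comes from a test. The unknown depth and the cells at 0 limit what can be said of low rows, and the single lane of most cMoP limits every comparison with them.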
